A study of Mus musculus with 8 samples.

Results

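Hsd11b1, Hsd11b2, H6pd, Nr3c1, Nr3c2, Fkbp5, Tsc22d3, Zbtb16 and Sgk1 are genes of glucocorticoid activation, reception and response, and were read here in the kidney of mice that had lost SdhD, a subunit gene of mitochondrial complex II. They were taken by gene symbol and covered 19 of 45220 array features and 9 of 22485 named genes. All of them passed the filter on missing values, which left 39253 features and 20462 genes. The genes were chosen with the difference between SDHD-ESR and +/- kidneys already known, over both slides and on each slide. That difference is therefore given for them as a description, without a test.

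The study asked which transcripts respond early to loss of the remaining SdhD allele. SDHD-ESR mice carried SdhD flox/- and a Cre-ER transgene, a recombinase that tamoxifen switches on. The +/- mice carried SdhD flox/- without Cre, and the +/+ mice SdhD flox/+ without Cre. All were males of the 129/SvJ background and littermate genotypes. The labels give 1 treatment for all genotypes, tamoxifen at 100 µg/g on each of 4 days from 9 weeks of age, and kidneys were taken at 10 weeks, 1 week after the first dose. Each group had 4 arrays, each array held 200 ng of kidney RNA of 2 mice (8 mice per group), and RNA pooled from 8 +/+ mice was the other channel of every array. Since only SDHD-ESR mice carried Cre, the deletion and the recombinase cannot be told apart, and neither can fewer cells of a type and less RNA per cell in whole kidney. The labels do not say which of the 2 mice came from which litter or cage, so the spread between arrays is that of pairs of mice on separate arrays. By the array names in the labels, replicates 1 and 2 of each group were read as slide 1 and replicates 3 and 4 as slide 2, with +/- at positions 1 and 2 and SDHD-ESR at positions 3 and 4, so that position and genotype cannot be told apart.

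Glucocorticoids are steroid hormones of the adrenal cortex. Within cells, the enzyme encoded by Hsd11b1 regenerates the active hormone from its inert 11-keto form, and the enzyme encoded by Hsd11b2 does the opposite, which in the distal nephron keeps glucocorticoids away from the mineralocorticoid receptor. The active hormone binds the glucocorticoid receptor (Nr3c1), which moves to the nucleus and switches on genes such as Fkbp5, Tsc22d3, Zbtb16 and Sgk1, many of them through a palindromic DNA element.

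All values below are log2 ratios of test RNA to the +/+ pool with each array centred on its median, so 0 is the median feature of an array. Their sign is the opposite of that in the deposited table, because Sdhd, the deleted gene, there stood above the pool on all 8 arrays. The methods define the ratio as test RNA over pool. Among values the study lists, the turned sign appears for its top genes and the opposite sign for some hypoxia genes, so the direction rests mainly on Sdhd. After turning, Sdhd was at -4.26, -3.65, -5.04 and -3.25 in SDHD-ESR and at -0.79, -0.40, -0.92 and -0.93 in +/- kidneys, a difference of -3.29 ± 0.37 (SE). Array medians before centring were 0.00, -0.06, 0.38 and 0.94 in SDHD-ESR and -0.19, -0.19, 0.20 and 0.41 in +/- arrays, so without centring the median difference over all genes not near 0 was 0.28 rather than 0.02.

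**Figure D1:**
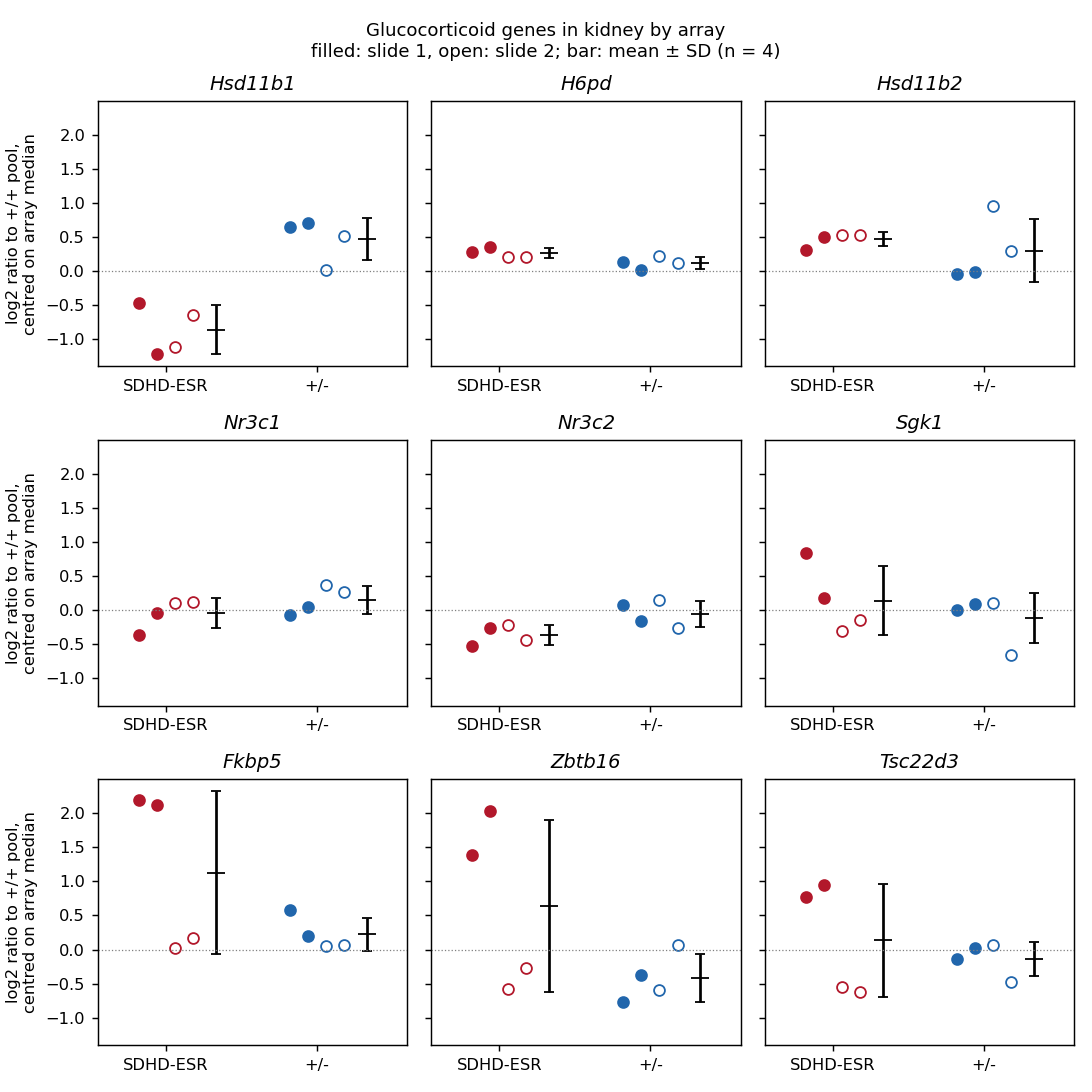
Log2 ratio to the +/+ pool, centred on the array median, of each of the 9 genes on each array, with SDHD-ESR in red left of +/- in blue, filled circles for slide 1, open circles for slide 2, and the mean ± SD of 4 arrays as a bar. Hsd11b1 is lower on all 4 SDHD-ESR arrays, while Fkbp5, Zbtb16 and Tsc22d3 are high on the 2 SDHD-ESR arrays of slide 1.

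Of the genes of hormone activation, Hsd11b1 had the largest difference of the 9 genes and was the only one whose groups did not overlap after centring. Its gene mean was -0.47, -1.22, -1.12 and -0.64 in SDHD-ESR and 0.65, 0.71, 0.02 and 0.51 in +/- kidneys. After centring, the SDHD-ESR arrays lay below the pool and the +/- arrays at or above it, and no SDHD-ESR array reached the lowest +/- array. The means were -0.86 ± 0.36 in SDHD-ESR and 0.47 ± 0.31 in +/- kidneys (SD, n = 4 each), a difference of -1.33 ± 0.22 (SE), or 0.398-fold. It was -1.52 on slide 1 and -1.14 on slide 2, it lay between -1.48 and -1.21 when any array was left out, and it was -1.07 without centring. Without centring its groups overlapped. There its features lay above the pool on SDHD-ESR replicate 4, at 0.25 to 0.39, beside 0.16 to 0.28 on +/- replicate 3. After centring, groups that do not overlap were found for 1 of the 9 genes and 10 of the 19 features, all 10 of them features of Hsd11b1 and lower in SDHD-ESR. Over all genes tested, 2.81% had groups that did not overlap with SDHD-ESR the lower, and over all features 2.53%. Since the genes were chosen on this contrast, nothing is read from that count. The study itself named Hsd11b1 among the few genes affected in both kidney and adrenal medulla.

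The array carried 10 features of Hsd11b1, and they differed little. Their differences ranged from -1.37 to -1.29. On SDHD-ESR replicate 2, the lowest array, they spanned -1.35 to -1.13, and on +/- replicate 3, the +/- array nearest to the SDHD-ESR values, -0.04 to 0.09. These features share RNA and array and are no replicates of the genotype. They do bear on the identity of the values, because the link of values to genes was inferred from the layout of the deposited table, and the members with 1 feature have no such check.

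**Figure D2:**
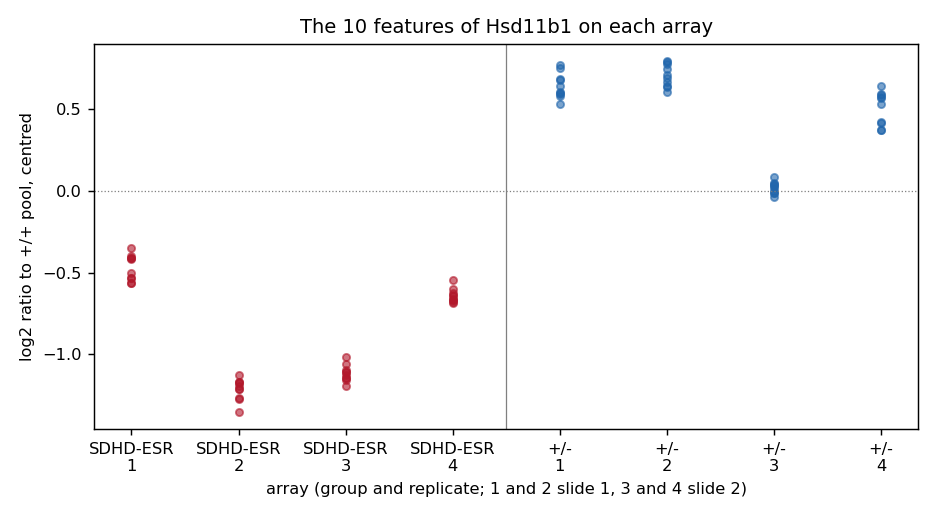
Centred log2 ratio to the +/+ pool (vertical axis) of each of the 10 features of Hsd11b1 on each array, SDHD-ESR arrays left of the line and +/- arrays right of it. The features of an array lie close together, and those of all SDHD-ESR arrays lie below those of all +/- arrays.

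The RefSeq sequence before the Hsd11b1 start is shown to set the most altered gene beside the receptor targets further on. It comprises the 250 bases before the transcription start in build GRCm38.p6, on the minus strand of chr1:193242361-193242610. It held neither motif searched, which were the palindromic glucocorticoid response element (GNACA and TGTNC with 3 bases of any kind between them) and the hexamer TGTTCT, each on both strands, so it is printed without capitals.
Hsd11b1: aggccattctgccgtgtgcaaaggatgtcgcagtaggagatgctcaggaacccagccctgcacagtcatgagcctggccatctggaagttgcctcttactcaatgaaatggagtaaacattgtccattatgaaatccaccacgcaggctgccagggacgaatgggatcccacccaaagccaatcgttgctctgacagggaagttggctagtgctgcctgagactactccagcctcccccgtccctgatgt
Over all 32851 promoters of the same length, the palindrome was found in 127 (0.387%) and the hexamer in 5284 (16.1%). The hexamer can lie inside the palindrome, and a match or its absence describes these letters only.

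H6pd encodes the hexose-6-phosphate dehydrogenase of the endoplasmic reticulum, which supplies the NADPH that the Hsd11b1 enzyme uses. It was at 0.28, 0.36, 0.21 and 0.21 in SDHD-ESR and at 0.13, 0.01, 0.23 and 0.12 in +/- kidneys. The ranges met only at +/- replicate 3, which lay above SDHD-ESR replicates 3 and 4, and the difference was 0.14 ± 0.08 (SE), with 0.25 on slide 1 and 0.04 on slide 2. Without centring it was 0.40, with 0.41 on slide 1 and 0.40 on slide 2. All 8 arrays were above the pool.

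Hsd11b2, the inactivating enzyme of the distal nephron, was at 0.31, 0.51, 0.53 and 0.53 in SDHD-ESR and at -0.04, -0.01, 0.96 and 0.30 in +/- kidneys. The highest and the lowest values were both of +/- kidneys, so the groups overlapped throughout. The difference was 0.16 ± 0.22 (SE) over both slides, 0.43 on slide 1 and -0.10 on slide 2 (0.26 on slide 2 without centring). It was 0.38 without +/- replicate 3, 0.05 without +/- replicate 1 and 0.06 without +/- replicate 2.

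The receptors differed less than Hsd11b1. Nr3c1, the glucocorticoid receptor, was at -0.36, -0.04, 0.11 and 0.13 in SDHD-ESR and at -0.07, 0.05, 0.37 and 0.27 in +/- kidneys. The groups overlapped, and on each slide the SDHD-ESR mean was the lower, with -0.19 on slide 1 and -0.20 on slide 2. The difference of -0.19 ± 0.15 (SE) became 0.07 without centring, and it was -0.09 without SDHD-ESR replicate 1 and -0.12 without +/- replicate 3. Its 2 features gave -0.18 and -0.21.

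Nr3c2, the mineralocorticoid receptor, which binds aldosterone and glucocorticoids alike, was at -0.52, -0.26, -0.22 and -0.44 in SDHD-ESR and at 0.07, -0.16, 0.15 and -0.26 in +/- kidneys. Only +/- replicate 4 fell within the SDHD-ESR range. The difference was -0.31 ± 0.12 (SE), with -0.35 on slide 1 and -0.27 on slide 2. It was -0.05 without centring, and there 0.09 on slide 2.

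In Fkbp5, Zbtb16 and Tsc22d3, 3 of the 4 targets of the receptor, the 2 SDHD-ESR arrays of slide 1 stood apart. Fkbp5 encodes a co-chaperone that holds the receptor in a state of low hormone affinity, and it is itself induced by the receptor. It was at 2.20, 2.12, 0.02 and 0.17 in SDHD-ESR and at 0.58, 0.20, 0.05 and 0.07 in +/- kidneys. SDHD-ESR replicates 1 and 2 were far above every other array, and replicates 3 and 4 lay within or below the +/- range. On slide 1 the difference was 1.77 (3.42-fold), on slide 2 0.04 (1.03-fold, or 0.40 in log2 without centring), and over both slides it was 0.90 ± 0.55 (SE). It was 0.55 without SDHD-ESR replicate 1 and 0.57 without replicate 2. On +/- replicate 2 its deposited ratio lay within 0.01 of 0, as a saturated spot would.

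Zbtb16, which encodes the zinc-finger repressor PLZF, was at 1.38, 2.03, -0.59 and -0.27 in SDHD-ESR and at -0.77, -0.38, -0.59 and 0.07 in +/- kidneys. Again the 2 high arrays were SDHD-ESR replicates 1 and 2, and the other 2 lay among the +/- arrays. Within slide 1 the difference was 2.28 (4.85-fold), within slide 2 -0.17 (0.19 without centring), and over both slides it was 1.06 ± 0.59 (SE), or 0.59 without SDHD-ESR replicate 2.

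Tsc22d3 encodes GILZ, a leucine zipper protein through which glucocorticoids dampen inflammation. It was at 0.76, 0.94, -0.55 and -0.62 in SDHD-ESR and at -0.14, 0.03, 0.06 and -0.48 in +/- kidneys. SDHD-ESR replicates 1 and 2 were the 2 highest of the 8 arrays and SDHD-ESR replicates 3 and 4 the 2 lowest. Slide 1 gave a difference of 0.91, slide 2 of -0.38 (-0.02 without centring), and the mean over both slides was 0.27 ± 0.39 (SE), or -0.0039 without SDHD-ESR replicate 2.

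Sgk1 encodes a kinase that raises sodium uptake by the epithelial sodium channel and is induced by both receptors. It was at 0.85, 0.18, -0.31 and -0.14 in SDHD-ESR and at 0.00, 0.09, 0.11 and -0.66 in +/- kidneys. SDHD-ESR replicate 1 alone was the highest array, with replicate 2 close to 3 of the +/- arrays, and +/- replicate 4 was the lowest. The difference was 0.26 ± 0.29 (SE), with 0.47 on slide 1 and 0.05 on slide 2 (0.41 without centring). It was 0.02 without SDHD-ESR replicate 1 and 0.07 without +/- replicate 4.

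**Figure D3:**
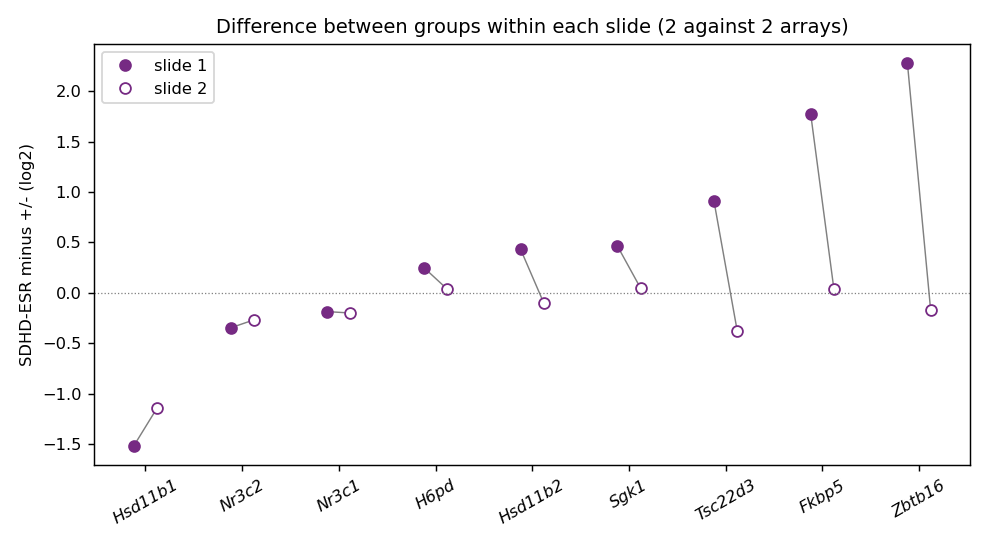
Difference of SDHD-ESR minus +/- (log2) within slide 1 (filled) and within slide 2 (open), each from 2 against 2 arrays, for the 9 genes in order of the difference over both slides. Hsd11b1, Nr3c2 and Nr3c1 have like differences on both slides, and Tsc22d3, Fkbp5 and Zbtb16 differ most between slides.

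The difference on slide 1 exceeded that on slide 2 by 2.44 ± 0.47 for Zbtb16, 1.74 ± 0.21 for Fkbp5 and 1.28 ± 0.28 for Tsc22d3 (SE from the fit of group by slide). It did so by 0.53 ± 0.32 for Hsd11b2, 0.42 ± 0.46 for Sgk1 and 0.21 ± 0.14 for H6pd. For Nr3c1 it was 0.01 ± 0.19, for Nr3c2 -0.08 ± 0.28 and for Hsd11b1 -0.37 ± 0.45. The 9 genes were chosen with the values by slide in view, so these are descriptions too. On slide 1, 6 of the 9 genes were higher in SDHD-ESR, with a median difference of 0.43. On slide 2, 3 were higher, with a median of -0.17 (7 of 9 and 0.19 without centring). The medians over all genes tested were 0.03 on slide 1 and -0.01 on slide 2. Without centring, 88.3% of all genes not near 0 were higher on slide 2, with a median of 0.35. What separates the slides beyond their arrays (the mice, their handling or the hybridisation) cannot be told apart here.

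Promoter sequence is shown for Sgk1, Tsc22d3 and Fkbp5, which are targets with and without the receptor's motif. Of the 9 genes, 6 had a promoter in the RefSeq table, with 13 starts in all, and Hsd11b2, Nr3c1 and Zbtb16 are only named. The palindrome was found before 1 of the 13 starts, of Sgk1, and the hexamer before 5, of Sgk1, Tsc22d3 and H6pd. Sgk1 had 6 starts. In the 250 bases before the start shown (plus strand, chr10:21993640-21993889), the palindrome begins 188 bases before the start, and single hexamers begin at 242, 189 and 180, of which the last 2 overlap the palindrome. Tsc22d3 had 3 starts, and the one shown (minus strand, chrX:140600523-140600772) holds the hexamer at 185. Fkbp5 had 1 start (minus strand, chr17:28486150-28486399) and neither motif in this window. Capitals mark the motifs.
Sgk1: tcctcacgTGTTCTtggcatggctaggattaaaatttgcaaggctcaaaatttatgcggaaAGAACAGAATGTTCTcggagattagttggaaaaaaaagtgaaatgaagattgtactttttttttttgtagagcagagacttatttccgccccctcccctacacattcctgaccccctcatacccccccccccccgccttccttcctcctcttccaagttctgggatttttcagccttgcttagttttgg
Tsc22d3: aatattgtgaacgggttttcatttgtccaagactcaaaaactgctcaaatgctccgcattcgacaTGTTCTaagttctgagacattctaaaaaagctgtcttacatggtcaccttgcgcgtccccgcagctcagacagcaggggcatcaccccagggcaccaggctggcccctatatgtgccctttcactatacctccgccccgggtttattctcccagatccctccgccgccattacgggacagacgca
Fkbp5: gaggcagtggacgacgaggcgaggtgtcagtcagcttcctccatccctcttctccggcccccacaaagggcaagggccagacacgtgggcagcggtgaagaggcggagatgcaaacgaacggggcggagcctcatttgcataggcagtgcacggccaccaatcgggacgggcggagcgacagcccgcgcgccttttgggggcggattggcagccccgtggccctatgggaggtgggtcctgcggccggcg
No binding of the receptor was measured on these arrays.

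Set against the +/+ pool, the mean of all 8 arrays was tested. This contrast is independent of the difference on which the genes were chosen only where both groups have a like spread. The SDs in SDHD-ESR and +/- kidneys were 0.07 and 0.09 for H6pd and 0.14 and 0.19 for Nr3c2. They were 1.19 and 0.25 for Fkbp5 and 0.11 and 0.46 for Hsd11b2, so for these genes the choice can also bear on this test. H6pd was higher than the pool by 0.19 ± 0.04 (SE, adjusted p = 0.0083 by limma over all genes, above the pool on 8 of 8 arrays). Hsd11b2 was higher by 0.38 ± 0.11 (adjusted p = 0.0282 by limma, 6 of 8 arrays), and Nr3c2 was lower, with -0.20 ± 0.06 (adjusted p = 0.0334 by limma, above the pool on 2 of 8 arrays). These are 2 of 9 genes higher and 1 of 9 lower, beside 25.2% of all genes higher and 15.3% lower, so the counts are near those of genes at large. Fkbp5 was at 0.68 ± 0.27 (adjusted p = 0.0839 by limma, and 0.0252 with slide as a block) and Hsd11b1 at -0.19 ± 0.11 (adjusted p = 0.193 by limma). Nr3c1, Sgk1, Zbtb16 and Tsc22d3 had adjusted p-values of 0.557 to 0.999 by limma. The dyes of test RNA and pool were never swapped, so dye and genotype cannot be told apart in this contrast, and the pool is 1 sample. Without centring no call held, with an adjusted p by limma of 0.0964 for H6pd, 0.0941 for Hsd11b2 and 0.934 for Nr3c2. Single arrays also decided calls: that of Hsd11b2 was lost without SDHD-ESR replicate 2, 3 or 4 or +/- replicate 4, that of Nr3c2 without SDHD-ESR replicate 1 or 4 or +/- replicate 2 or 4, and Fkbp5 gained a call without SDHD-ESR replicate 3, with adjusted p-values by limma of up to 0.0588, up to 0.075 and of 0.0386 in that order.

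Other genes of the pathway were taken from 4 lists drawn up with earlier results of these data known, of which 60 of 69 genes were measured. None of the 60 passed an adjusted p of 0.05 between SDHD-ESR and +/- kidneys by limma, where 2 of 20462 genes were called higher (0.00977%) and 1 lower (0.00489%). Sdhd itself, the deleted gene, differed by -3.29 and had an adjusted p of 0.106 by limma. Failing this threshold therefore does not show that a gene was unchanged. Glucocorticoid receptor targets were the largest list, with 28 measured. With p-values left unadjusted, limma put 5 of the 28 at 0.05 or less as higher and 0 as lower, beside 4.00% of all genes higher and 3.81% lower. The 5 were Fbxo32, a ubiquitin ligase of muscle wasting, Lcn2, a marker of tubular injury, the transcription factor gene Cebpd, the NF-kB inhibitor gene Nfkbia, and Irs2, an adaptor of the insulin receptor. Cebpd, Nfkbia, Lcn2 and Irs2 are genes the study named from these samples, so they are not independent evidence of a direction.

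Among these, Cebpd was at 1.38, 1.80, 0.27 and -0.17 in SDHD-ESR and at -0.50, -0.12, 0.04 and -0.48 in +/- kidneys (difference 1.09 ± 0.43 SE, adjusted p = 0.611 by limma). As in Fkbp5, the highest arrays were SDHD-ESR replicates 1 and 2, with differences of 1.90 on slide 1 and 0.27 on slide 2 (0.63 without centring). Fbxo32 was at -0.30, 0.18, -0.56 and -0.44 in SDHD-ESR and at -0.96, -0.64, -0.65 and -0.88 in +/- kidneys, where all SDHD-ESR arrays lay above all +/- arrays (difference 0.50 ± 0.17 SE, adjusted p = 0.566 by limma). Lcn2 differed by 0.56 ± 0.19 (adjusted p = 0.566 by limma), with 0.94 on slide 1 and 0.17 on slide 2 (0.53 without centring). Nfkbia differed by 0.46 ± 0.19 (adjusted p = 0.615 by limma), with 0.71 on slide 1 and 0.21 on slide 2 (0.57 without centring). These genes rank by p, and none passed the adjusted threshold.

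Of the 28 targets, 5 (Errfi1, Mt1, Pck1, G6pc and Tgm2) had ratios within 0.01 of 0 on 2 or more arrays, as saturated spots would, and the counts that follow leave them out. Of the other 23, 21 (91.3%) were higher in SDHD-ESR on slide 1 and 13 (56.5%) on slide 2, beside 55.6% and 48.9% of all genes. The difference on slide 1 exceeded that on slide 2 in 22 of 23 (95.7%), beside 54.4% of all genes. Without centring this was 17 of 23 (73.9%), beside 31.9% of all genes. The median difference of the 23 was 0.37 on slide 1 and 0.03 on slide 2. By the group by slide fit in limma, 0 of 28 passed an adjusted p of 0.05, as did 0 of 20462 genes, and before adjustment 5 had a larger difference on slide 1 at p of 0.05 or less (Dusp1, Cebpd, Nfkbia, Angptl4 and Lcn2), beside 4.70% of all genes, while 0 had a larger difference on slide 2, beside 3.36%.

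Named after its values were seen, Dusp1, a phosphatase gene that glucocorticoids induce, had a difference of 0.60 on slide 1 and -0.63 on slide 2, and Angptl4, an inhibitor of lipoprotein lipase, of 0.26 on slide 1 and -1.45 on slide 2. Angptl4 was at 0.26, 0.48, -1.20 and -1.20 in SDHD-ESR and at -0.02, 0.23, 0.27 and 0.22 in +/- kidneys. Its 2 low arrays were SDHD-ESR replicates 3 and 4, so here slide 2 stood apart. Per1 and Klf9, which the receptor induces in many tissues, were not past an unadjusted p of 0.05. Per1 differed by 0.97 on slide 1 and -0.14 on slide 2 (0.22 without centring). Klf9 differed by 0.39 on slide 1 and 0.13 on slide 2 (0.49 without centring).

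**Figure D4:**
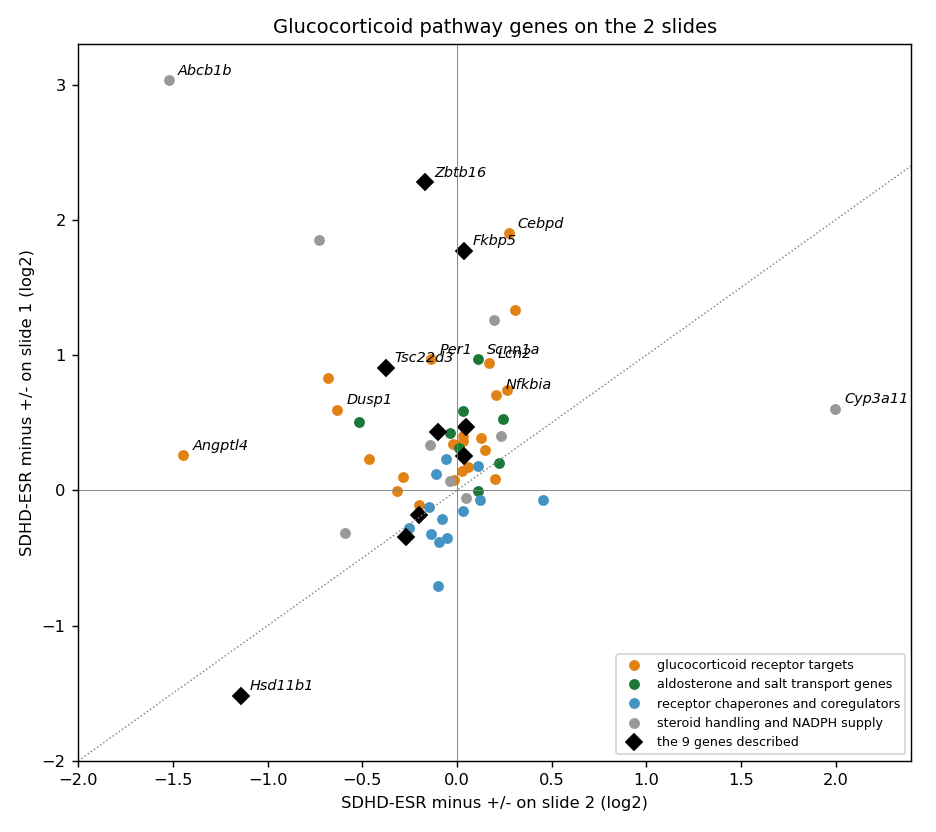
Difference of SDHD-ESR minus +/- (log2) on slide 2 (horizontal axis) and on slide 1 (vertical axis) for the measured genes of the 4 lists (circles) and the 9 genes described (black diamonds), with the line of equality dotted. List genes with ratios within 0.01 of 0 on 2 or more arrays are left out. Most glucocorticoid receptor targets shown lie above the line, and Hsd11b1 lies low on both axes.

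Of the aldosterone and salt transport genes, 10 of 12 were measured. Before adjustment, 2 were higher at p of 0.05 or less by limma and 0 lower, and none passed the adjusted threshold. Slc12a3, the thiazide-sensitive sodium chloride cotransporter, was at 0.42, 0.44, 0.50 and 0.46 in SDHD-ESR and at -0.19, 0.00, 0.26 and 0.22 in +/- kidneys. After centring, the SDHD-ESR arrays lay close together above all +/- arrays (difference 0.38 ± 0.11 SE, adjusted p = 0.528 by limma), with 0.52 on slide 1 and 0.24 on slide 2. Scnn1a, a subunit of the epithelial sodium channel that the study also named, was at 1.02, 1.22, 0.58 and 0.47 in SDHD-ESR and at 0.25, 0.05, 0.39 and 0.44 in +/- kidneys (difference 0.54 ± 0.19 SE, adjusted p = 0.577 by limma). All 4 SDHD-ESR arrays were the higher, though on slide 2 by 0.11 (0.47 without centring) and on slide 1 by 0.97. The kinase genes Stk39 and Wnk4, which control Slc12a3, differed by 0.31 and 0.19 (adjusted p = 0.648 and 0.764 by limma). Scnn1a, Wnk4, Stk39 and Usp2 had a larger difference on slide 1 at p of 0.05 or less before adjustment by limma, 4 of 10 genes, beside 4.70% of all genes.

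Of the receptor chaperones and coregulators, 13 of 16 were measured, and 8 of them were lower in SDHD-ESR kidneys, with a median difference of -0.14 beside 0.01 over all genes. Without centring 11 of the 13 were higher, with a median of 0.12. Beside them, 17036 of the 19721 genes not near 0 were higher without centring, with a median of 0.28. Before adjustment, 3 were lower at p of 0.05 or less by limma and 0 higher, beside 3.81% of all genes lower and 4.00% higher. They were the coactivator Crebbp (-0.23 ± 0.08 SE, adjusted p = 0.588 by limma), the chaperone Hsp90aa1 (-0.40 ± 0.15 SE, adjusted p = 0.59 by limma) and the co-chaperone Ppid (-0.24 ± 0.10 SE, adjusted p = 0.632 by limma). The coactivator Ncoa3 was at -0.14 ± 0.09. Without centring Crebbp, Ppid and Ncoa3 turned sign, with 0.03, 0.02 and 0.12.

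Hsp90aa1 was at -0.31, -0.38, 0.08 and 0.13 in SDHD-ESR and at 0.45, 0.27, 0.31 and 0.10 in +/- kidneys. SDHD-ESR replicates 1 and 2 were the lowest arrays of this gene, the same arrays on which Fkbp5 and Zbtb16 were highest. Its difference was -0.71 on slide 1 and -0.10 on slide 2. Without centring it was -0.54 on slide 1, 0.26 on slide 2 and -0.14 over both slides.

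Of the genes of steroid handling and of the NADPH supply of the endoplasmic reticulum, 9 of 13 were measured. Before adjustment, limma put 0 at p of 0.05 or less as lower, beside 3.81% of all genes, and 1 as higher, beside 4.00%. It was Cyp3a11, a steroid-hydroxylating cytochrome P450, at -1.53, -1.12, 0.69 and 0.23 in SDHD-ESR and at -2.22, -1.64, -1.94 and -1.13 in +/- kidneys (difference 1.30 ± 0.52 SE, adjusted p = 0.612 by limma). SDHD-ESR replicates 3 and 4 were the only arrays above the pool, and only SDHD-ESR replicate 1 lay within the +/- range, with differences of 0.60 on slide 1 and 2.00 on slide 2. The liver marker Alb was also highest on SDHD-ESR replicates 3 and 4, at -3.51, -3.29, -1.57 and 0.06 in SDHD-ESR and at -3.62, -3.26, -3.79 and -2.53 in +/- kidneys, and Apoa1 differed by 1.14 on slide 2. The other liver markers were not higher on slide 2, where Ttr differed by -0.01 and Apoh by -0.88. The part of liver transcripts in the value of Cyp3a11, an enzyme abundant in liver, was not tested. Slc37a4, the glucose-6-phosphate carrier that feeds H6pd and that the study also named, differed by 0.32 ± 0.16 (adjusted p = 0.686 by limma), with 0.40 on slide 1 and 0.23 on slide 2. Akr1d1, a steroid reductase, and Cyp3a13 were at -0.45 ± 0.26 and 0.73 ± 0.43 (adjusted p = 0.746 and 0.758 by limma).

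Abcb1b, a pump that exports glucocorticoids and many drugs, was named after its values were seen. It was at 1.27, 2.10, -1.06 and -1.13 in SDHD-ESR and at -1.16, -1.53, 0.82 and 0.04 in +/- kidneys. The SDHD-ESR arrays were high on slide 1 and low on slide 2, and the +/- arrays were the reverse, so slide 1 gave 3.03 and slide 2 -1.52.

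The adrenal cortex makes the hormone and lies beside the kidney, so its genes were read for carry-over. None of the 6 markers of the adrenal cortex passed an adjusted p of 0.05 between the groups by limma, and none reached 0.05 before adjustment. Their differences were 0.06 for Star, 0.52 for Cyp11a1, 0.18 for Cyp11b1, 0.71 for Cyp11b2, -0.14 for Cyp21a1 and -0.21 for Mc2r. The mean of the list by array was -0.42, -0.80, -0.18 and -0.98 in SDHD-ESR and -0.44, -1.19, -0.77 and -0.81 in +/- kidneys. Single markers differed between slides in both directions, as Cyp21a1 did with -0.96 on slide 1 and 0.68 on slide 2, and Cyp11a1 with 1.09 on slide 1 and -0.04 on slide 2. Against the pool, 3 of the 6 were lower over all 8 arrays at an adjusted p of 0.05 or less by limma, and 0 higher. They were Cyp11a1 (-1.24), Cyp11b1 (-1.02) and Star (-0.41), beside 15.3% of all genes lower and 25.2% higher. The part of adrenal RNA, in the test RNA or in the pool, in the values of the receptor targets was not tested.

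Markers of 12 cell types or tissues were read in the same way, with 48 of 50 measured. They include liver, fat and the adrenal cortex markers above, which are not of kidney cells. No marker passed an adjusted p of 0.05 by limma, which Sdhd did not pass either. Before adjustment 4 were higher at p of 0.05 or less (Slc12a3, Avpr2, Elf5 and the liver gene Apoa1) and 5 lower (Cdh5, Kdr and Emcn of endothelium, Col3a1 and Pdgfrb of fibroblasts), beside 4.00% of all genes higher and 3.81% lower. They were named after their values were seen. Of the proximal tubule markers, which identify the main cell of the renal cortex, 5 of 6 had ratios near 0 on 2 or more arrays, as very bright spots would. Since the values are ratios to kidney RNA, they say nothing of the level of a marker.

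The markers of collecting duct principal cells, where Hsd11b2, Nr3c2 and Scnn1a act, had list means of 0.41, 0.45, 0.27 and 0.19 in SDHD-ESR and 0.08, 0.02, 0.34 and 0.27 in +/- kidneys. These means were higher in SDHD-ESR on slide 1 and not on slide 2, as was Hsd11b2, which without centring was higher on slide 2 by 0.26. Of the 5 markers, 3 were higher on slide 2. Without centring 4 were, with a median of 0.37, beside 88.3% of all genes. Scnn1a was higher on both slides, by 0.97 on slide 1 and 0.11 on slide 2 (0.47 without centring). All 5 markers had a larger difference on slide 1 (4 of 5 without centring), with medians of 0.33 on slide 1 and 0.01 on slide 2. Beside 4.00% of all genes, 2 of the 5 markers, Avpr2 and Elf5, were higher over both slides at p of 0.05 or less by limma before adjustment. Their part in the values of Hsd11b2, Sgk1 and Scnn1a was not tested.

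Lower in SDHD-ESR kidneys were 3 of 4 endothelial markers, with a median difference of -0.37 (-0.43 on slide 1 and -0.28 on slide 2), and 3 of 4 fibroblast markers, with a median of -0.56 (-0.81 on slide 1 and -0.31 on slide 2). Both medians were below 0 on both slides, as was the difference of Hsd11b1. Without centring they were -0.11 and -0.30 over both slides, and 0.08 and 0.05 on slide 2. All 4 macrophage markers were lower, with a median of -0.22, which was 0.04 without centring. Liver markers, of a tissue rich in Hsd11b1, had list means of -1.18, -0.96, -1.11 and -0.19 in SDHD-ESR and -1.40, -1.40, -1.46 and -1.17 in +/- kidneys, with 3 of 4 higher in SDHD-ESR. Their differences were 1.22 for Alb, 0.77 for Apoa1, 0.02 for Apoh and -0.02 for Ttr. Against the pool, Alb (-2.69) and Apoa1 (-1.83) were lower over all 8 arrays at an adjusted p of 0.05 or less by limma. Apoh (-0.22) and Ttr (0.31) did not pass. The part of these cell types in the value of Hsd11b1 was not tested.

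The genes whose values over the 8 arrays were nearest to those of Hsd11b1, of 18576 with values on all arrays, were Pzp, Kif20b, Esm1, Degs2 and F3, with root-mean-square differences of 0.28, 0.32, 0.32, 0.34 and 0.36 on the log2 scale. Pzp encodes a protease inhibitor of plasma, Kif20b a mitotic kinesin, Esm1 a proteoglycan of endothelial cells, Degs2 a sphingolipid hydroxylase and F3 tissue factor, the trigger of coagulation. Pzp, the nearest, was at -0.43, -1.36, -0.58 and -0.46 in SDHD-ESR and at 0.49, 0.39, 0.20 and 0.13 in +/- kidneys. Like Hsd11b1, its lowest array was SDHD-ESR replicate 2 and no SDHD-ESR array reached a +/- array after centring. The differences of the 5 genes lay between -1.22 for Kif20b and -0.95 for Esm1. Nearness in values over 8 arrays is a description and was not tested.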

How the data were processed

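Kidney RNA was hybridised to two-colour arrays, Cy5 marking the test RNA and Cy3 the +/+ pool throughout, and the arrays were read in a GenePix scanner and analysed in Multi-Experiment Viewer. The authors deposited 1 table with a column per array, described as the log ratio of the channels. How background and array differences were handled is not stated in the labels or methods used here. Depth does not apply to arrays, and their number limits the precision.

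Of the deposited values, 9.05% were whole numbers, the largest 65024, of which the large ones cannot be log ratios, and all were set missing. Base 2 was read from 5628 values at the log2 of a ratio of small whole numbers, while the natural log gave 4 and base 10 gave 2 (tolerance 2e-07). Values were joined to genes through a scanner layout inferred from the values. With it, repeated features of 376 accessions had an intraclass correlation of 0.739, against -0.0065 over 334 accessions by plain row number. Signs were turned so that Sdhd fell, and arrays were centred on their medians.

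Features with at least 3 values per group went into limma 3.58.1 under R 4.3.3 (group means, empirical Bayes, two-sided, Benjamini-Hochberg adjustment over all features or genes, threshold 0.05). A gene's value was the mean of its features with values on all arrays or, where it had none, its feature with the most values (18576 of 20462 genes had values on all arrays, and Mc2r lacked 1 +/- array). Group by slide and the mean of all arrays against the pool were fitted likewise. The fits were checked on simulated data with known changes. Alternatives were the values as deposited, arrays scaled to a common spread, slide or replicate as a block, other filters, the median over features, and each array left out. Every value column mapped to a sample (0 did not). Motifs were searched in RefSeq promoters with Python 3.11.15.

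The members, lists and tests were chosen with earlier results of these data known. Named genes were the members, Sdhd, up to 4 genes of smallest unadjusted p in each pathway list, the adrenal cortex markers, and the 5 genes nearest to Hsd11b1. Other genes were named after their values were seen.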

Additional observations from a re-analysis of the deposited data

Results flagged for a closer look

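Of 50 groups of 4 arrays examined, over the genes described and those named from the lists, 2 had an array far from the others, and chance alone gives about 5%. In Hsd11b2, SDHD-ESR replicate 1 was at 0.3089 while the other SDHD-ESR arrays were at 0.51 to 0.53. In Sgk1, +/- replicate 4 was at -0.6626 while the other +/- arrays were at 0.00 to 0.11, and without it the difference was 0.07 rather than 0.26.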

How the results depend on the processing

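The differences of Hsd11b1, Fkbp5 and Zbtb16 between SDHD-ESR and +/- kidneys kept their direction in every alternative run. Of 39253 features, 6 were called between SDHD-ESR and +/- kidneys, against 2 without centring, 2 with arrays scaled to a common spread, 2 with slide as a block, and 0 to 4 with 1 array left out. Of 20462 genes, 3 were called, against 5 with slide as a block, 5 over features with all 8 values and 3 to 4 with 1 array left out. Against the pool 8295 genes were called, 725 without centring and 6565 to 7219 with 1 array left out. The difference between slides gave 0 calls by limma in every alternative in which it was fitted, with 961 genes larger on slide 1 and 687 on slide 2 at an unadjusted p of 0.05 or less.

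Against the pool, Tsc22d3, at -0.000381, turned to 0.18 without centring and 0.014 with scaled arrays. With 1 array left out it ranged from -0.14 to 0.13, Zbtb16 from -0.12 to 0.31 and Sgk1 from -0.10 to 0.11. Between groups, Crebbp, Ppid and Ncoa3 turned to 0.0285, 0.0199 and 0.12 without centring, which adds the difference of the array medians to every gene. With slide as a block Fkbp5 passed the threshold against the pool (adjusted p = 0.0252 by limma).

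The groups share replicate numbers, and numbers 1 and 2 were read as slide 1 and 3 and 4 as slide 2. Samples of the same number deviated together little (r of 0.0275, 0.0147, -0.0026 and 0.0391 across genes). These values do not show a pairing by number beyond the slide. With the replicate block, 1 feature and 0 genes were called between groups, and Nr3c2 lost its call against the pool (adjusted p = 0.052 by limma). The cause of the changed counts was not tested. There were 4 arrays per group, and the gene fit had a prior of 1.49 degrees of freedom.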
